A study of Rattus with 6 samples.

Results

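The genes of 4 receptors that control the growth and hormone output of pituitary lactotrophs were examined in aspirin-treated rat pituitary cells. They were Esr1 (estrogen receptor alpha), Drd2 (dopamine D2 receptor), Sstr2 (somatostatin receptor 2) and Thrb (thyroid hormone receptor beta). They were taken by gene name from a table of 118147 exons of 12801 genes, and all 4 had rows, 25 exons in all. The cells were of the line RC-4B/C, derived from a pituitary adenoma of a rat, and had been given either acetylsalicylic acid (ASA, aspirin, an inhibitor of the cyclooxygenases) or the solvent dimethyl sulfoxide (DMSO). Each group had 3 libraries. Neither dose nor duration is stated in the labels, nor whether the libraries came from separate cultures, so p-values measure the spread between these libraries only, which may be technical. RC-4B/C stands for lactotrophs here as 1 tumour line, and the series also names GH3 cells, which were not analysed here.

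Lactotrophs secrete prolactin, and each of these receptors carries a hormonal signal to them. Estrogen acts through estrogen receptor alpha, a ligand-activated transcription factor, to drive prolactin synthesis and lactotroph proliferation. Dopamine from the hypothalamus acts through the D2 receptor, which couples to inhibitory G proteins, lowers cyclic AMP and holds prolactin release and cell growth down. Dopamine agonists are for that reason the usual drugs for prolactin-secreting tumours. Somatostatin receptor 2 couples to the same class of G proteins, restrains secretion and proliferation, and is the target of somatostatin analogues. Thyroid hormone receptor beta is the nuclear receptor through which thyroid hormone feeds back on the pituitary.

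All 4 receptor genes were lower in every ASA library than in any DMSO library, by 2.22-fold to 3.996-fold, and Esr1 alone passed the test over all genes. Levels are given as RPKM, the reads of a gene divided by its listed exon length in kilobases and by the library's reads in units of 1000000. Tests are limma on log2(RPKM + 0.1) with a Benjamini-Hochberg adjusted p under 0.05 over 12502 genes, and fold changes come from the difference of the group means on that scale. Of all tested genes 4.99% were called lower by this rule, 6.21% higher and 11.2% in either direction, and of the 4 receptors 1 was called, lower. A log2 difference of -1 or below was found in 10.3% of tested genes and in all 4 receptors. Complete separation of the groups in that direction was itself common, at 18.8% of tested genes. The receptors were chosen with earlier results of these data known, so setting them against these shares is a description and not a test. Since RNA was measured in bulk, fewer cells carrying a receptor and less receptor RNA per cell cannot be told apart.

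The libraries held 66492447 to 94486062 reads in the listed exons. They carried the transcripts of prolactin cells, with Prl between 14037 and 62170 RPKM and Pou1f1, whose product is required for lactotrophs to form, between 584 and 804. Prlr, also on the fixed lactotroph marker list, had no row. Of 5 fixed markers each, somatotrophs had 2 with rows, corticotrophs 3, gonadotrophs 2 and thyrotrophs 2. Ghsr averaged 67.6 RPKM in DMSO and 82.7 in ASA libraries, Dlk1 265 and 243, and Pcsk1 31.6 and 38.8. Only the thyrotroph marker Cga was called among these, lower with ASA (25.8 to 2.86 RPKM, limma adjusted p = 0.0137). Dio2, also of thyrotrophs, averaged 37.6 and 14.3 (adjusted p = 0.169). Gh1, Lhb, Fshb and Tshb had no rows. ASA replicate 2 stood apart from the others. The scatter of exons within genes was 0.575 (log2) in it and 0.0914 to 0.118 in the other 5, and 497 of its exons had no read against 4 to 13 elsewhere. Fixed markers of endothelial and of folliculostellate or stem cells had no rows (0 of 5 in each list), and 1 of 6 myeloid markers had one. Of 6 fibroblast or pericyte markers 3 had rows, while the collagen genes Col1a1, Col1a2 and Col3a1 had none. Their summed level was 2143 to 3284 RPKM in ASA and 1104 to 1166 in DMSO libraries, nearly all of it Dcn. By limma Dcn and Pdgfrb were called higher with ASA (adjusted p = 0.0213 and 0.0372). Lum was not, averaging 49.0 RPKM in ASA and 54.5 in DMSO libraries (adjusted p = 0.734). The part of these marker differences in the receptor results was not tested.

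**Figure D1:**
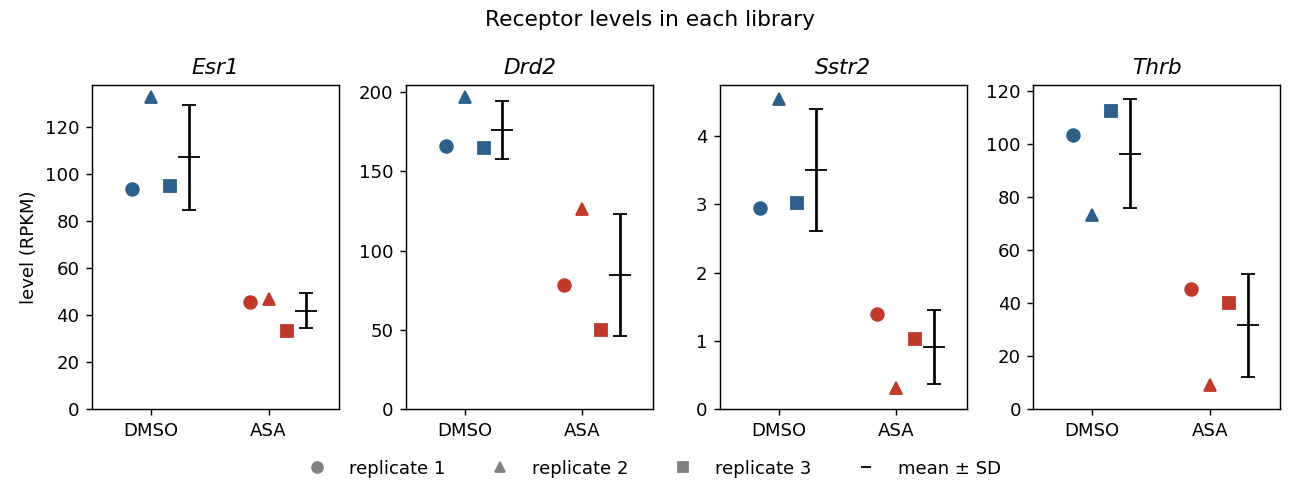
Level of each receptor gene (RPKM, linear axis from 0) in the 3 DMSO and 3 ASA libraries, with a marker shape per replicate and bars for the mean ± SD. In each panel the ASA libraries lie below the DMSO libraries, and ASA replicate 2 is the highest ASA library for Drd2 and the lowest for Sstr2 and Thrb.

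Esr1 gave the receptor difference with the least scatter. Its level was 45.4, 47.0 and 33.3 RPKM in ASA replicates 1, 2 and 3, and 93.7, 133 and 95.0 in DMSO replicates 1, 2 and 3. ASA replicate 2, which stood apart in other respects, was close to the other ASA libraries here, and DMSO replicate 2 was the highest of all. The groups averaged 41.9 ± 7.48 and 107 ± 22.3 RPKM (SD, n = 3), 2.55-fold lower with ASA (log2 difference -1.35 ± 0.22 SE, adjusted p = 0.0189 by limma). The call depended on which library was left out. It held without ASA replicate 1, ASA replicate 2 or DMSO replicate 2 (adjusted p = 0.0228, 0.0118 and 0.0431). Dropping ASA replicate 3 ended it (adjusted p = 0.0958), as did dropping DMSO replicate 1 (0.0696) or DMSO replicate 3 (0.102), while the fold stayed between 2.27 and 2.71 whichever single library was dropped. Esr1 (ENSRNOG00000019358) lies on the plus strand of chromosome 1 and spans 41325460 to 41590616 from its first to its last listed exon in Rnor_6.0.

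Drd2 was the most abundant of the 4 receptors in every library. Its level was 78.4, 126 and 49.8 RPKM in ASA replicates 1, 2 and 3, and 166, 197 and 165 in DMSO replicates 1, 2 and 3. The DMSO libraries agreed within a factor of 1.20, whereas the highest and lowest ASA libraries differed 2.53-fold, with ASA replicate 2 closest to the DMSO range. The means were 84.8 ± 38.6 and 176 ± 18.3 RPKM, 2.22-fold lower (log2 difference -1.15 ± 0.32), and the limma adjusted p of 0.0587 missed the threshold. Without ASA replicate 2 the difference was 2.80-fold (adjusted p = 0.0109), and without ASA replicate 3 it was 1.76-fold (adjusted p = 0.148). Drd2 (ENSRNOG00000008428) spans 53729928 to 53742571 on the plus strand of chromosome 8.

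Sstr2 was the scarcest of the 4 in every library, and 83.4% of the table's genes had a higher mean level in DMSO. It had 142, 23 and 99 reads in ASA replicates 1, 2 and 3 and 308, 413 and 308 in DMSO replicates 1, 2 and 3. On the RPKM scale these were 1.39, 0.312 and 1.02 against 2.94, 4.54 and 3.03, so that ASA replicate 2 lay far below the other ASA libraries. The means of 0.910 ± 0.549 and 3.50 ± 0.898 RPKM differed 3.996-fold (log2 difference -1.998 ± 0.53), with a limma adjusted p of 0.0503. This gene sat on the edge of the threshold and passed in 8 of 16 alternative fits, among them that on the recovered reads (adjusted p = 0.0463) and that without ASA replicate 2 (2.73-fold, adjusted p = 0.0248). Its single listed exon, of 1107 bases (ENSRNOG00000002793), lies at 102141715 to 102142821 on the plus strand of chromosome 10.

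Thrb varied most between ASA libraries. Its level was 45.2, 9.24 and 40.1 RPKM in ASA replicates 1, 2 and 3, and 103, 73.2 and 112 in DMSO replicates 1, 2 and 3. ASA replicates 1 and 3 lay close together, and ASA replicate 2 was 4.89-fold below the highest of them. The means were 31.5 ± 19.5 and 96.3 ± 20.5 RPKM, 3.68-fold lower (log2 difference -1.88 ± 0.57, limma adjusted p = 0.0705). Without ASA replicate 2 the fold shrank to 2.22 and its standard error from 0.568 to 0.207, and the gene was called (adjusted p = 0.0170). It was called also without ASA replicate 1 (4.89-fold, adjusted p = 0.0453) and missed the threshold without any other single library. Thrb (ENSRNOG00000006649) spans 8895077 to 8979417 on the minus strand of chromosome 15.

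Without ASA replicate 2 all 4 receptors were called lower, against 8.07% of tested genes, with folds between 2.22 (Thrb) and 2.80 (Drd2). The same 4 were called without both libraries numbered 2, where 11.4% of tested genes were called lower. None was called once ASA replicate 3 was left out, nor without DMSO replicate 1, nor without DMSO replicate 3, where 0%, 0.336% and 0% of tested genes were called lower. In the first and the last of these no gene was called in either direction by limma, with 2926 and 2345 genes at an unadjusted p under 0.05. Without ASA replicate 1 the called receptors were Esr1, Sstr2 and Thrb (8.27% of tested genes lower), and without DMSO replicate 2 Esr1 alone (2.55%).

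Esr1 was called with all 6 libraries in every other fit tried. It was the only receptor called with a pseudocount of 0.01, with genes of mean RPKM at least 2, without a mean-variance trend and with a gene taken as its median exon, where 4.85%, 5.42%, 3.78% and 3.43% of tested genes were called lower. Sstr2 joined it with a pseudocount of 1, without a filter on low values and with limma's voom on the recovered reads (5.37%, 4.92% and 4.97%). Sstr2 and Thrb joined it when libraries were centred on their median (6.27%), and all 4 were called when libraries were weighted by their quality (20.6%). The weights were 1.44, 0.743 and 8.71 for DMSO replicates 1, 2 and 3, so that fit rested mostly on DMSO replicate 3 for its control. They were 0.536, 0.1045 and 1.91 for ASA replicates 1, 2 and 3.

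**Figure D2:**
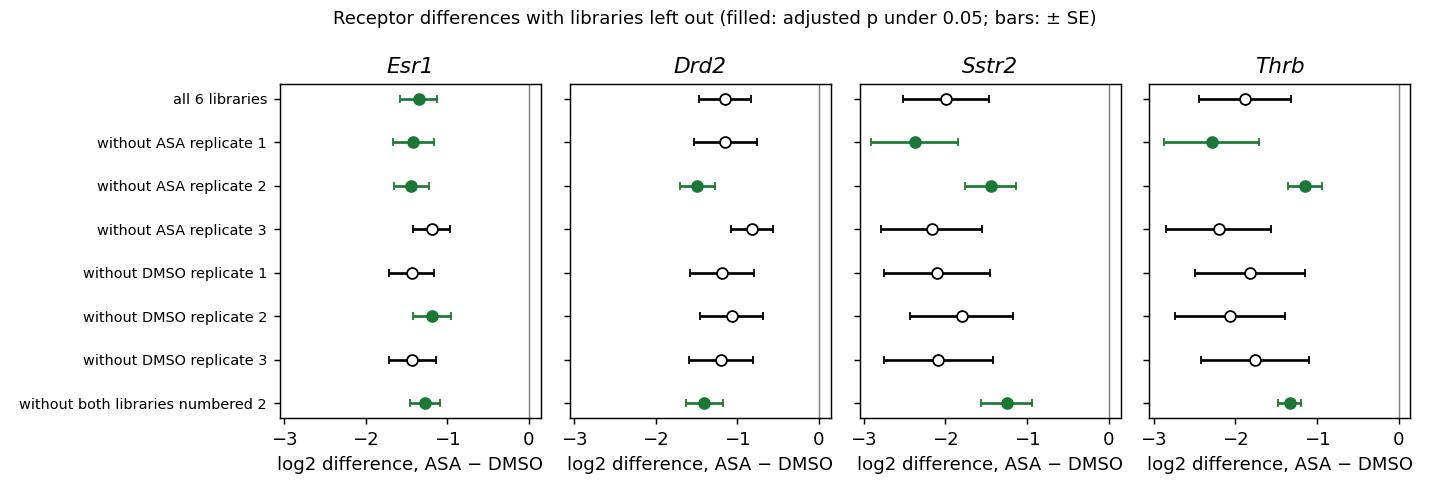
Difference between ASA and DMSO (log2, x axis) for each receptor gene with all 6 libraries, with each library left out in turn and without both libraries numbered 2 (y axis). Points are limma estimates, bars are ± SE and filled points have an adjusted p under 0.05, which all 4 genes have without ASA replicate 2.

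Compared per length, the order of the levels put Drd2 first and Sstr2 last in all 6 libraries. Esr1 and Thrb changed places from library to library and did not differ beyond their spread in DMSO, at 107 ± 22.3 and 96.3 ± 20.5 RPKM. In ASA replicate 2 they stood at 47.0 and 9.24 RPKM, and in DMSO replicate 2 at 133 and 73.2.

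The exon rows showed how levels differed along each receptor gene. All 7 numbered exons of Drd2 and the single exon of Sstr2 had rows, 8 of 11 numbered exons of Esr1 and 9 of 11 of Thrb. The 7 Drd2 exons moved as a block. Outside ASA replicate 2 their differences from the DMSO mean scattered by at most 0.0431 (log2) within a library, and by 0.331 in ASA replicate 2. The 87-base exon, exon 5 of those listed, has the length of the exon that separates the long from the short form of the D2 receptor, which differ in a cytoplasmic loop that contacts G proteins. Its level was 107, 115 and 70.5 RPKM in ASA replicates 1, 2 and 3 and 233, 269 and 238 in DMSO replicates 1, 2 and 3. Relative to its neighbouring exons it stood at 1.38, 0.958 and 1.44 in the ASA libraries and at 1.41, 1.396 and 1.44 in the DMSO libraries. The ratio was thus alike in 5 libraries and lower in ASA replicate 2, the library with scattered exons. This exon was also the only Drd2 exon called lower with all libraries (2.58-fold, limma adjusted p = 0.0412 over all exons), where 0.885% of all exons were. All 7 were called lower without ASA replicate 2, where 6.38% of all exons were. The groups overlapped at exon 7 alone, while 16.6% of all exons had every ASA value below every DMSO value.

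The Esr1 exons did not move as a block. From exon 5 on, counted from the 5′ end among the listed ones, the level stepped up in DMSO libraries, and less so in ASA libraries. The exons before it were not level, since exon 3 had 106, 96.5 and 90.8 RPKM in DMSO replicates 1, 2 and 3, above exons 1, 2 and 4. In ASA replicate 3, exon 3 (46.7 RPKM) was above each of exons 5 to 8 (34.2 to 45.7). Exons 1 to 4 together had 67.7, 66.9 and 61.3 RPKM in DMSO replicates 1, 2 and 3 and 36.2, 39.7 and 29.5 in ASA replicates 1, 2 and 3. Exons 5 to 8 together had 138, 246 and 153 in the DMSO and 61.3, 59.6 and 39.9 in the ASA libraries. The downstream exons were thus 2.04, 3.68 and 2.49 times as high as the upstream ones with DMSO, and 1.69, 1.5001 and 1.35 times with ASA, without overlap. The high Esr1 value of DMSO replicate 2 came from the downstream exons, since its upstream exons matched those of the other DMSO libraries. On the log2 means the upstream exons were 1.87-fold lower with ASA and the downstream ones 3.29-fold (1.995-fold and 3.51-fold without ASA replicate 2). This split at exon 5 was chosen after the values were seen, and its ratio was not tested.

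Rat pituitary cells are known to make, beside the full receptor, a truncated estrogen receptor product that starts inside the gene and keeps the exons of the ligand-binding domain. The table does not assign exons to transcripts, so which transcripts carried the downstream reads was not tested. In ASA replicate 2 the ends of genes were raised in general, with exons near the 3′ end 0.125 (log2, median of 4703 genes) above those near the 5′ end relative to DMSO. In the other libraries this value lay between -0.0193 and 0.0240, ASA replicates 1 and 3 among them. Of the 8 Esr1 exons, 6 were called lower in the exon-wise limma test, by 2.05-fold to 3.62-fold, where 0.885% of 118130 exons were and 8 of the 25 receptor exons. Exon 1, the longest, was at 32.99, 54.1 and 25.6 RPKM in ASA replicates 1, 2 and 3 and between 51.9 and 58.8 in the DMSO libraries, so that its groups overlapped through ASA replicate 2 (adjusted p = 0.257). All 8 were called without ASA replicate 2, where 6.38% of exons were. The groups did not overlap for 7 of the 8 and for 21 of the 25 receptor exons, against 16.6% of all exons. Exons of a gene share its difference between the groups, so counts of receptor exons are not counts of independent results.

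The exon calls depended on single libraries as the gene calls did. Of the 25 receptor exons 23 were called lower without ASA replicate 2 and 22 without both libraries numbered 2 (9.77% of all exons). There were 8 with a pseudocount of 1 (1.18%), 8 without a filter on low values (0.883%) and 5 without ASA replicate 1 (1.14%). None was called without DMSO replicate 2 (0.554%), nor without ASA replicate 3, DMSO replicate 1 or, in turn, DMSO replicate 3 (0% each).

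**Figure D3:**
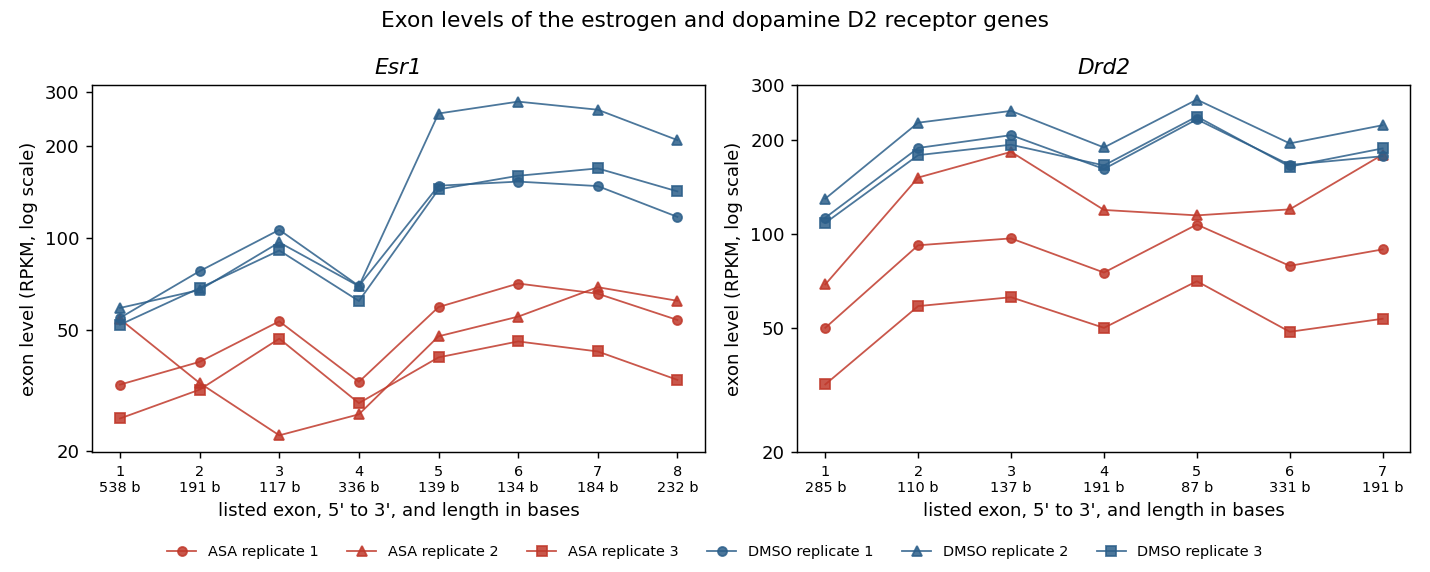
Exon levels (RPKM, log scale) of Esr1 and Drd2 along the listed exons from 5′ to 3′, with lengths in bases, one line per library. DMSO lines of Esr1 step up at exon 5, to 148, 255 and 144 RPKM, while ASA lines reach 59.2, 47.5 and 40.5, and the Drd2 lines run in parallel except in ASA replicate 2.

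Thrb showed the sharpest contrast between neighbouring exons. This gene is known to make receptor isoforms with different amino-terminal parts from separate promoters and first exons, joined to shared exons for the DNA-binding and hormone-binding domains, and one of these isoforms is typical of the pituitary. Exon 3 of those listed, of 325 bases (8931659 to 8931983 on chromosome 15), had 66.5, 48.0 and 78.1 RPKM in DMSO replicates 1, 2 and 3 and 13.1, 5.14 and 14.4 in ASA replicates 1, 2 and 3. It was 6.30-fold lower with ASA (log2 difference -2.66, limma adjusted p = 0.0367 over all exons). It was the only Thrb exon called with all libraries, where 0.885% of all exons were called lower. Exon 2, of 261 bases (8955282 to 8955542), had 18.8, 17.5 and 14.4 RPKM in the DMSO libraries and 21.9, 5.65 and 16.9 in the ASA libraries. In ASA replicates 1 and 3 it was within or above the DMSO range, and it was low only in ASA replicate 2.

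Exon 1, with only 22 bases, lay between 47.9 and 86.1 RPKM in all 6 libraries, and the groups overlapped. Exons 4 to 9 together had 134, 94.0 and 147 RPKM in DMSO replicates 1, 2 and 3 and 59.7, 10.5 and 52.7 in ASA replicates 1, 2 and 3. Set against exon 2, exon 3 stood at 3.53, 2.75 and 5.43 with DMSO and at 0.597, 0.910 and 0.853 with ASA. The exon that was the more abundant of the pair in every DMSO library was the less abundant in every ASA library. This pair and the block of exons 4 to 9 were chosen after the values were seen. How often neighbouring exons of other genes change order in this way was not counted. Leaving out ASA replicate 2 gave 4.59-fold lower for exon 3 and 2.19-fold for exons 4 to 9, while exon 2 was at a log2 difference of 0.19 (adjusted p = 0.595). There 7 of the 9 exons were called lower, against 6.38% of all exons.

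Exon usage was tested as each exon against the other exons of its gene. With all 6 libraries limma's diffSplice called none of the 24 exons of Esr1, Drd2 and Thrb (smallest adjusted p = 0.999994), where 0.0559% of 116382 exons were called. Without ASA replicate 2 it called Thrb exons 2 and 3, with log2 differences of 1.31 and -1.37 relative to the rest of the gene (adjusted p = 0.0238 and 0.0136), where 0.226% of exons were. A limma test of the same quantity computed within each library called none of the 24, with all libraries (adjusted p = 0.784 for both Thrb exons, 0.00258% of exons called) or without ASA replicate 2 (0.472 and 0.325, 0.0163% called). Without both libraries numbered 2, diffSplice called Thrb exons 1, 2 and 3 (adjusted p = 0.00159, 0.000379 and 0.000729, 0.268% of exons called). The contrast of exons 2 and 3 was thus called by 1 of the 2 tests and only after ASA replicate 2 was left out. Within the 9 exons, differences from the DMSO mean scattered by 1.25 (log2) in ASA replicate 2 and by 0.761 and 0.685 in ASA replicates 1 and 3. The scatter was at most 0.248 in the DMSO libraries, but each of these is part of that mean, which lowers its own scatter.

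**Figure D4:**
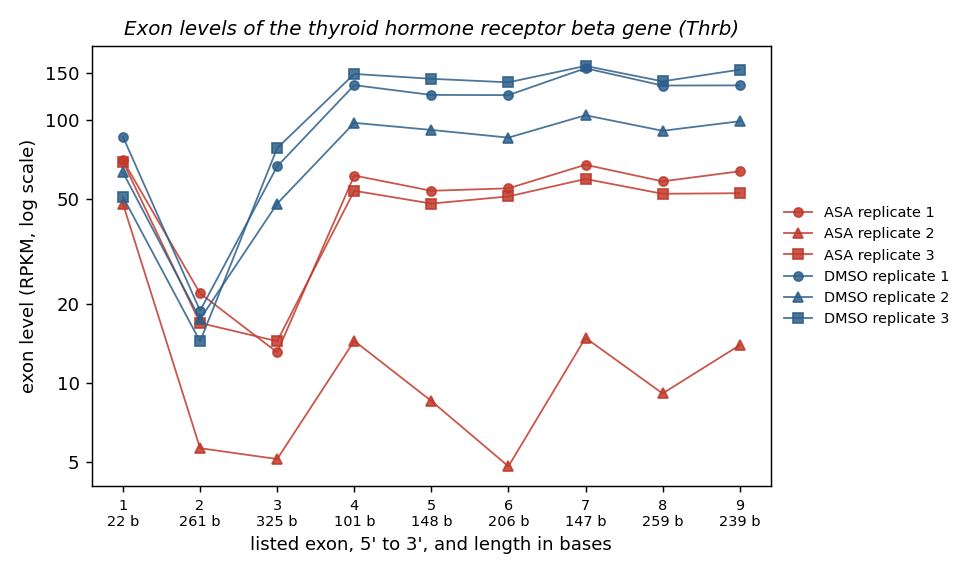
Exon levels (RPKM, log scale) of Thrb along the 9 listed exons from 5′ to 3′, with lengths in bases, one line per library. Exon 3 lies above exon 2 in the 3 DMSO libraries and below it in the 3 ASA libraries, and ASA replicate 2 is the lowest line from exon 2 on.

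Relatives of the receptors were few in the table. Of 10 family members looked up, Thra, Drd4 and Sstr3 had rows, and the other estrogen, dopamine and somatostatin receptor genes (Esr2, Drd1, Drd3, Drd5, Sstr1, Sstr4 and Sstr5) have no value here. Every listed exon had over 10 reads in at least 4 of the 6 libraries, so a gene without rows is not shown to be absent. Thra, which encodes the alpha form of the thyroid hormone receptor, had 50.5, 107 and 62.1 RPKM in ASA replicates 1, 2 and 3 and 38.9, 42.8 and 37.1 in DMSO replicates 1, 2 and 3. All ASA libraries lay above all DMSO libraries, and the limma adjusted p of 0.102 missed the threshold (log2 difference 0.81 ± 0.28). One Thra exon overlaps an exon of Nr1d1 on the opposite strand, so some of its reads may belong to that gene. Per length, Thrb was 2.65, 1.71 and 3.03 times as abundant as Thra in DMSO replicates 1, 2 and 3, and 0.896, 0.0864 and 0.647 times in ASA replicates 1, 2 and 3. The balance of the alpha and beta genes was therefore on opposite sides of 1 in the groups. Drd4 averaged 1.46 ± 0.4998 against 3.41 ± 1.16 RPKM (adjusted p = 0.0989), and Sstr3 3.31 ± 2.68 against 2.98 ± 1.89 (adjusted p = 0.997).

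In the wider pathways more genes fell than rose with all libraries, and most did not pass the test. Of 188 distinct genes in 8 lists of partners, transducers and targets, 128 were tested, 4 rose (3.125%, against 6.21% of all tested genes) and 12 fell (9.375%, against 4.99%). This count was not tested against that of all genes, and the lists were chosen with earlier results of these data known. The lists had a median log2 difference of -0.07 against -0.06 over all tested genes. Without ASA replicate 2, the counts given below for each list stand beside 12.9% of all tested genes called higher and 8.07% called lower. In that fit only the thyroid hormone-responsive list had more genes called lower than higher. Without both libraries numbered 2 only the cyclic AMP list did, so the excess of falls depended on the libraries kept. Among the partners and coregulators of the estrogen receptor 0 of 18 tested genes passed with all libraries (3 passed without ASA replicate 2, 2 higher and 1 lower). The helicase coactivator Ddx5 had the smallest p, at 237 ± 64.2 against 423 ± 30.7 RPKM (adjusted p = 0.0548). The coactivators Ncoa7 and Ncoa2 had log2 differences of 0.88 and 0.60 (adjusted p = 0.0657 and 0.0913), and the nuclear scaffold protein gene Safb had -0.65 (adjusted p = 0.225).

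Of 15 tested estrogen-responsive genes 2 fell (13.3%, against 4.99% of all tested genes) and none rose (2 fell and 3 rose without ASA replicate 2, 13.3% and 20%), with a median of -0.06 (0.27 without that library). The neuropeptide gene Gal, known for strong induction by estrogen in lactotrophs, fell 28.6-fold, from 34.6, 296 and 96.5 RPKM in DMSO replicates 1, 2 and 3 to 1.52, 8.13 and 3.08 in ASA replicates 1, 2 and 3 (adjusted p = 0.0202). Cav1, which encodes a membrane scaffold protein, fell 2.38-fold from 323 ± 57.4 to 136 ± 27.3 RPKM (adjusted p = 0.0211). The cyclin gene Ccnd1 and the ubiquitin ligase gene Siah2 had log2 differences of 0.76 and 0.72 (adjusted p = 0.0630 and 0.0938). Prl itself is on this list and did not separate, with 34104 ± 24994 RPKM in ASA and 42004 ± 20083 in DMSO libraries (adjusted p = 0.700).

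In the dopamine and inhibitory G protein list 1 of 24 tested genes rose and 1 fell, 4.17% each and so no more than the 6.21% and 4.99% of all tested genes (3 and 3 without ASA replicate 2, 12.5% each). Rgs8, a member of the family that speeds the shut-off of G proteins, fell 5.74-fold, from 10.1, 22.3 and 21.6 RPKM in DMSO replicates 1, 2 and 3 to 2.48, 2.05 and 4.61 in ASA replicates 1, 2 and 3 (adjusted p = 0.02005). Grk2, a kinase that marks active receptors for desensitization, rose 1.80-fold from 70.6 ± 10.8 to 127 ± 10.7 RPKM (adjusted p = 0.0321). The potassium channel gene Kcnd3 had a log2 difference of 0.62 (adjusted p = 0.103). In the list for cyclic AMP 1 of 23 tested genes rose and 3 fell, 4.35% and 13% (5 and 5 without ASA replicate 2, 21.7% each). The phosphodiesterase genes Pde4b and Pde10a fell 5.21-fold and 2.95-fold, Crem, a transcription factor switched by cyclic AMP, fell 2.17-fold, and the coactivator Crtc3 rose 2.63-fold (adjusted p = 0.0420, 0.0257, 0.0388 and 0.0209).

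None of the 11 tested genes of the somatostatin list passed (1 rose without ASA replicate 2), with a median of -0.25. The phosphatase Ptpn6, which acts downstream of somatostatin receptors, had 56.9 ± 9.17 against 81.0 ± 10.3 RPKM (adjusted p = 0.133). The receptor anchor Flna and the phosphatase Ptprj had adjusted p-values of 0.187 and 0.237.

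Among 20 tested partners and suppliers of thyroid hormone receptors 1 rose and 1 fell, 5% each and near the share of all tested genes (2 and 1 without ASA replicate 2, 10% and 5%). Crym, a protein that binds thyroid hormone in the cytosol, fell 4.24-fold, with 17.1, 19.5 and 11.9 RPKM in DMSO replicates 1, 2 and 3 and 5.39, 3.61 and 2.50 in ASA replicates 1, 2 and 3 (adjusted p = 0.02005). Tbl1x, a subunit of the corepressor complex of nuclear receptors, rose 1.65-fold (adjusted p = 0.0341), and the dimer partner Rxrb had a log2 difference of 0.93 (adjusted p = 0.0591). Of 10 tested thyroid hormone-responsive genes 3 fell and none rose, with all libraries and without ASA replicate 2 (30% lower in both, against 4.99% and 8.07% of all tested genes). There were 1 higher and 4 lower without ASA replicate 1 (7.85% and 8.27% of all tested genes). There were 1 and 1 without DMSO replicate 2 (313 and 319 of all 12502 tested genes), and 2 and 2 without both libraries numbered 2 (13.9% and 11.4%). The list's median of -0.47 was the lowest of the 8. The list was not split by whether thyroid hormone raises or lowers a gene, so its counts do not give a direction of hormone action. Cga, the common alpha subunit of glycoprotein hormones, fell 9.84-fold from 25.8 ± 2.33 to 2.86 ± 1.54 RPKM (adjusted p = 0.0137). Cpt1a, of fatty acid import into mitochondria, fell 2.45-fold and the fatty acid synthase gene Fasn 2.14-fold (adjusted p = 0.0363 and 0.0420). Klf9, a direct target of thyroid hormone receptors, had a log2 difference of 0.92 (adjusted p = 0.0538).

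Other receptors of lactotrophs went in both directions. Of 18 tested, 1 rose and 2 fell, 5.56% and 11.1% against 6.21% and 4.99% of all tested genes, with a median of 0.13. Without ASA replicate 2, 3 rose and 2 fell, 16.7% and 11.1%. The epidermal growth factor receptor gene Egfr rose 3.60-fold from 4.58 ± 1.68 to 16.7 ± 5.33 RPKM (adjusted p = 0.0290). The endothelin receptor gene Ednra fell 2.20-fold and the fibroblast growth factor receptor gene Fgfr1 fell 1.88-fold (adjusted p = 0.0340 and 0.0376). The insulin receptor gene Insr had 2.90 ± 0.853 against 0.996 ± 0.326 RPKM (adjusted p = 0.0520). In all 8 lists no gene was called without ASA replicate 3 or DMSO replicate 3, where none of all tested genes was. Without DMSO replicate 1, 2 were called, against 91 of all 12502 tested genes.

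**Figure D5:**
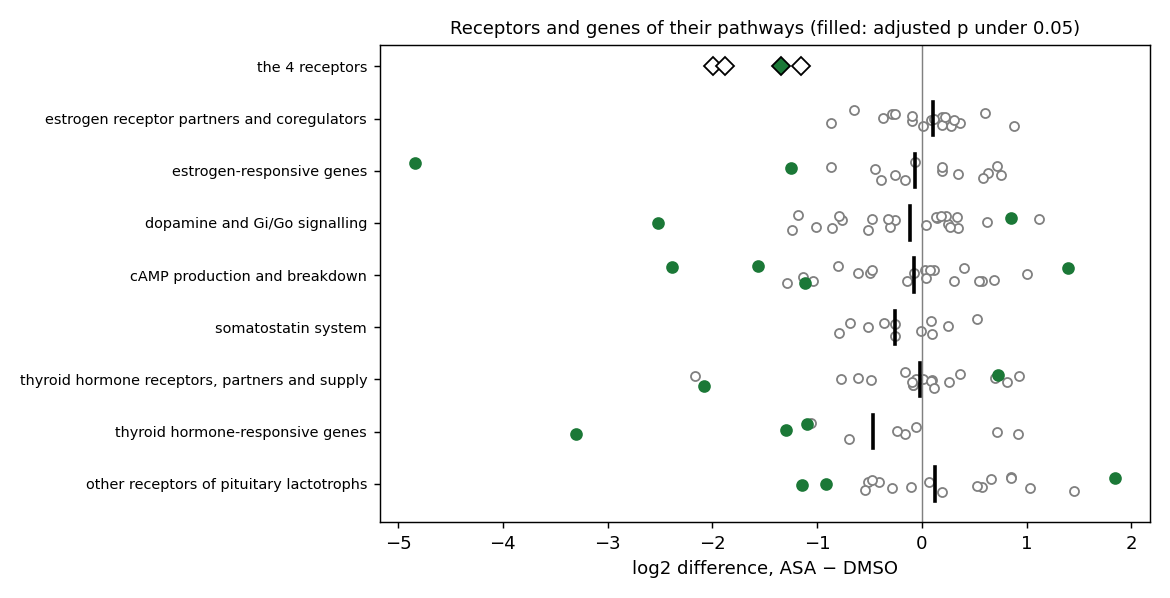
Log2 difference between ASA and DMSO (x axis) for the 4 receptors (diamonds) and for the tested genes of 8 pathway lists (circles), with a black bar at each list's median. Filled symbols have a limma adjusted p under 0.05, and the medians lie between -0.47 and 0.13 while the receptors lie between -1.998 and -1.15.

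The genes whose levels followed each receptor most closely differed from receptor to receptor. Over the 6 libraries, and among 11052 genes whose RPKM averaged 1 or more, Esr1 was followed by Elf3, Tmem50b and Minar2 (Pearson r of log2 levels 0.998, 0.997 and 0.994). Drd2 was followed by Gstm7, Dyrk1b and Ssr2 (0.995, 0.993 and 0.993), and Gstm7 belongs to a family of similar copies, so its value is uncertain. Sstr2 was followed by Cxcl10, Polr2e and P3h1 (0.999, 0.999 and 0.998), and Thrb by Srr, Skp1 and Ppil1 (0.998, 0.998 and 0.997). These values describe 6 points that share the difference between the groups. Without ASA replicate 2 they were 0.987 to 0.9995. An r above 0.95 was reached by 106 genes for Esr1, 57 for Drd2, 339 for Sstr2 and 724 for Thrb. The epithelial transcription factor gene Elf3 fell 5.32-fold, from 11.2, 22.003 and 13.4 RPKM in DMSO replicates 1, 2 and 3 to 3.25, 3.24 and 1.90 in ASA replicates 1, 2 and 3 (adjusted p = 0.0151). Like Esr1, Elf3 was highest in DMSO replicate 2. Since it was picked for its correlation with Esr1 over these libraries, its fall and this peak follow from that choice.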

How the data were processed

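Polyadenylated RNA of 3 ASA and 3 DMSO samples of RC-4B/C cells was made into directional libraries, per the labels' protocols. Per the submitters' processing notes, TopHat2 2.1.0, Bowtie2, Trim Galore 0.4.1, cutadapt 1.14 and edgeR 3.26.8 are named, beside the build Rnor_6.0 and without roles. How reads were counted, whether strand was used and which annotation applied is not given in the sources used here. Each exon row holds log2 RPKM as deposited by the authors. They hold an added constant of 0.00292 reads per 1000000, and after its removal 95.7% to 96.8% of values were whole reads within 0.02 read, all values of the 4 receptors among them. Gene values are reads summed over listed exons, per kilobase and per 1000000 reads. The test was limma 3.58.1 in R 4.3.3 (two-sided, with eBayes trend) on log2(RPKM + 0.1), with genes of mean RPKM at least 0.5 and exons of at least 0.1. The added 0.1 understates changes of low genes. Exon usage was tested with diffSplice, which in simulated data made too many calls when the exons of a gene differed in their spread. All tests were checked on simulated data. Replicate numbers only name libraries in accession order. The receptors, pathway lists, markers and tests were chosen with earlier results of these data known. Named genes are the receptors, Prl, Pou1f1, family relatives, up to 4 genes of smallest p per list and the 3 genes most correlated with each receptor. Alternatives were other pseudocounts, filters, scalings, weights, variance models and gene values, and left-out libraries. The within-library exon test, exon fits without both libraries numbered 2, and the exon blocks and their ratios were added after the data were seen. Promoter and protein sequences were not used here. One named gene is not reported here.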

Additional observations from a re-analysis of the deposited data

How the results depend on the processing

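All 4 receptors stayed lower with ASA in each of the 16 alternative fits, and Esr1 kept its call in 13, losing it in 3 that left out a library. Leaving out 1 library at a time gave log2 differences of -1.44 to -1.18 for Esr1, -1.49 to -0.82 for Drd2, -2.38 to -1.45 for Sstr2 and -2.29 to -1.15 for Thrb. It gave 0 to 2617 called genes and 0 to 19640 called exons, against 1400 and 2929 with all libraries, and 0 to 2 receptor exons called for usage. The highest count came with ASA replicate 2 left out, while dropping DMSO replicate 2 gave 632 called genes, dropping DMSO replicate 1 gave 91, and dropping ASA replicate 3, or DMSO replicate 3, gave 0. Sstr2 gained its call with a pseudocount of 1 (-1.26), without a filter on low values (-1.998), with median-centred libraries (-1.96), with voom (-2.11), with library quality weights (-1.48) and without both libraries numbered 2 (-1.25). Thrb gained it with centring (-1.84), weights (-1.47) and without both libraries numbered 2 (-1.34), and Drd2 with weights (-1.55) and without both (-1.40). The weights called 5745 genes. Leaving out both called 3153 genes, 25618 exons and 3 receptor exons for usage.

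The sign turned for uncalled values only. Sstr3 was at 0.0276 with a pseudocount of 1, 0.0375 with centring and -0.62 to 0.59 with a library left out, and Prl at -1.01 to 0.0651 with a library left out. Pou1f1 was at -0.13 with weights, -0.0559 with the median exon and -0.0662 without both libraries numbered 2, and Gstm7 at 0.0780 with the median exon. Thrb exon 1 ranged from -0.26 to 0.12 and exon 2 from -0.77 to 0.19 with a library left out, at 0.0729 and 0.22 without both libraries numbered 2. Usage ranged from -0.25 to 0.50 for Esr1 exon 3, -0.019 to 0.022 for Drd2 exon 4 and -0.017 to 0.25 for Drd2 exon 7 (-0.00325 without both libraries numbered 2). No paired analysis was possible because the labels give no replicate numbers. With 23 to 413 reads, Sstr2 was the receptor most limited by depth.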
